A study of Homo sapiens with 6 samples.

Results

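The transcripts of the heparin-binding growth factors midkine (MDK) and pleiotrophin (PTN) and of their receptors PTPRZ1, ALK and NCL (nucleolin) were followed in human induced pluripotent stem cells (hiPSCs) grown as aggregates in vertical wheel bioreactors. These 5 genes were chosen by name from the 19977 genes counted in each library, and each symbol matched 1 Ensembl identifier. The wild-type line NCRM-1 was seeded as single cells and sampled on day 4. The treated group (PEG and HS in the labels) comprised 3 libraries from Essential 8 (E8) medium with 10 mg/ml polyethylene glycol (PEG) and 0.1 µg/ml Heparin sodium salt (HS), and the control group comprised 3 libraries from E8 alone. In both, 50% of the medium was exchanged on day 2. The label of each library gives its treatment as PEG and HS or as Control and was followed, although the protocol text attached to the control libraries also mentions both additives. All libraries came from 1 cell line, and the labels read as a single bioreactor per medium, in which case medium and vessel cannot be told apart and the p-values describe the spread between samples of a vessel. The question is whether the additives changed these transcripts relative to E8 alone.

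MDK and PTN form a family of small secreted, basic proteins that bind heparin and the sulfated chains of cell surface proteoglycans. Both bind PTPRZ1, a receptor-type tyrosine phosphatase that carries chondroitin sulfate chains and whose phosphatase activity is lowered by PTN. ALK is a receptor tyrosine kinase that has been linked to both growth factors through PTPRZ1 or by direct binding, and its own ligands are ALKAL1 and ALKAL2. NCL is an abundant RNA-binding protein of the nucleolus that also appears at the cell surface, where it binds MDK and PTN. The family is known from neural development, in which PTN and PTPRZ1 are expressed by neural progenitors, and MDK is common in embryonic cells. Binding of the secreted proteins to heparin in the medium is not visible in RNA counts.

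The libraries held 26991279 to 36185138 counts on genes. Levels are given as CPM, a gene's count relative to the library total after TMM scaling, and differences as log2 fold changes of treated over control libraries, tested with edgeR's quasi-likelihood method and Benjamini-Hochberg adjustment over 16505 genes. The pluripotent stem cell markers were all present: 12 of 12 had a mean of at least 1 CPM, and their summed level was 10740 to 10900 CPM in treated libraries and 10790 to 10960 CPM in control libraries. Single markers went both ways (see Other observations), so the near-equal sums do not mean that each marker was unchanged. In bulk RNA, fewer cells of a type and less RNA per cell cannot be told apart.

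Of the 5 genes, PTN fell, PTPRZ1 and NCL rose, and MDK and ALK did not pass the test. The change of PTN was 1.49-fold, that of PTPRZ1 1.15-fold and that of NCL 1.08-fold. Called genes (adjusted p under 0.05) were thus 3 of 5, against 25.3% of all genes tested. The 2 higher genes stand beside a background of 12.2% called higher, and the 1 lower gene beside 13.1% called lower. For 3 of the 5 genes, no treated library fell within the range of the control libraries or the reverse, against 39.3% of all genes.

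**Figure D1:**
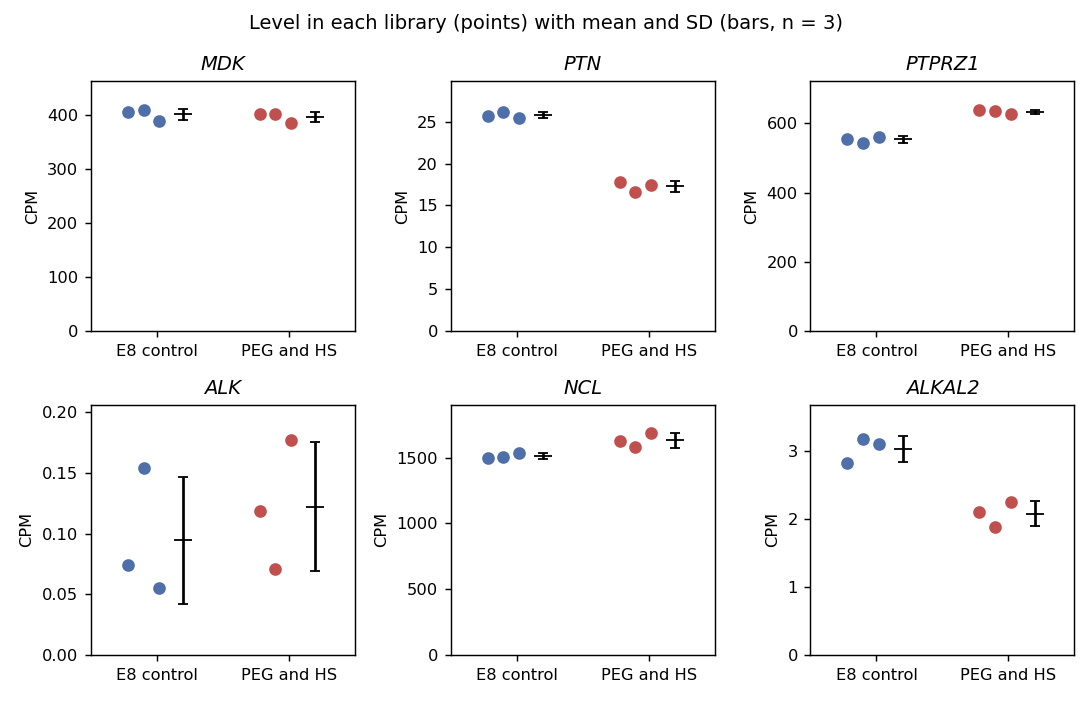
CPM (linear axes starting at 0) of the 5 genes and of ALKAL2 in each library, with 3 points per medium and the mean with SD (n = 3) beside them. PTN and ALKAL2 lie lower and PTPRZ1 and NCL higher in every treated library, MDK overlaps near 400.8 CPM, and ALK lies below 0.2 CPM throughout.

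Of the ligands, MDK (ENSG00000110492, chromosome 11, 46380756 to 46383837 of GRCh38, plus strand, 5 exons in the canonical transcript) had 402, 401 and 384 CPM in the treated replicates and 406, 408 and 389 CPM in the control replicates. The lowest value of each medium was in its replicate 3, and the media overlapped. The means were 396 ± 9.71 CPM (SD, n = 3) in treated libraries and 401 ± 10.4 CPM (SD, n = 3) in control libraries. The log2 fold change was -0.018 (SE 0.029, adjusted p = 0.696, edgeR), and its 95% interval of -0.079 to 0.043 corresponds to 0.947-fold to 1.03-fold. Each value rests on 10940 to 14034 reads. The last exon of MDK meets an exon of the opposite-strand gene CHRM4, which had 1.25 CPM in each medium. The library kit keeps the strand, but the strand setting of the counting was not given in the sources used here.

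PTN (ENSG00000105894, chromosome 7, 137227341 to 137343774, minus strand, 5 exons) had 17.9, 16.6 and 17.4 CPM in the treated replicates and 25.6, 26.2 and 25.5 CPM in the control replicates. Every treated library lay below every control library, and the gap between the media was several times the range within either. The means were 17.3 ± 0.658 CPM (SD, n = 3) and 25.7 ± 0.367 CPM (SD, n = 3). PTN fell by 0.57 on the log2 scale (SE 0.052, 95% interval -0.684 to -0.462, adjusted p = 8.23e-07, edgeR). Among all called genes, 82% had a smaller absolute log2 fold change than PTN. Its transcripts share no sequence of 31 bases with another gene, and between 468 and 919 reads stood behind each value.

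The balance of both ligands within a library was also compared. The log2 ratio of PTN to MDK (in CPM) was -4.49, -4.60 and -4.46 in the treated replicates and -3.99, -3.96 and -3.93 in the control replicates. The difference of -0.56 corresponds to a PTN share relative to MDK of 0.68 times that in control libraries, with no overlap between media. The two-sided exact permutation test gave p = 0.1, the smallest value that 3 libraries against 3 can give. PTN did not overlap between media and MDK varied little, so the separation of the ratio followed from their values. This p was therefore fixed by them and is no separate evidence. Per length of all exon bases, MDK was 16.4 to 18.0 times as abundant as PTN in treated libraries and 11.35 to 11.77 times in control libraries. With the length of the canonical transcript these ranges were 39.4 to 43.2 and 27.3 to 28.3, so the size of the ratio depends on the length used.

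The ligands of ALK were near the limit of detection or low. ALKAL2 had 2.11, 1.88 and 2.25 CPM in treated libraries and 2.82, 3.17 and 3.10 CPM in control libraries, without overlap. It fell by 0.54 on the log2 scale (SE 0.147, adjusted p = 0.0129, edgeR), and without control replicate 2 the adjusted p was 0.0502. ALKAL1 had 22 reads over the treated libraries and 14 over the control libraries, or 0.230 CPM (exact Poisson 95% interval 0.144 to 0.349) and 0.146 CPM (0.0798 to 0.245). These intervals cover counting error only, and no difference was detectable (adjusted p = 0.454, edgeR). Of these 4 ligands, 2 were called lower and 0 higher, against 13.1% and 12.2% of all genes tested.

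Of the receptors, PTPRZ1 (ENSG00000106278, chromosome 7, 121873089 to 122062036, plus strand, 30 exons) had 637, 636 and 626 CPM in the treated replicates and 555, 543 and 561 CPM in the control replicates. Every treated library was higher, and the media were separated by more than the range of either. The means were 633 ± 6.07 CPM (SD, n = 3) and 553 ± 9.15 CPM (SD, n = 3), a log2 fold change of 0.20 (SE 0.025, 95% interval 0.143 to 0.248, adjusted p = 2.66e-05, edgeR). This was a small change next to the other called genes, of which 37.5% changed less. At 14961 to 21486 reads per library the gene was counted deeply, and 0.202% of its 31-base words occur in another gene.

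PTPRZ1 and its ligand PTN differed between media in opposite directions. The log2 ratio of PTPRZ1 to PTN (in CPM) was 5.16, 5.26 and 5.17 in treated libraries and 4.44, 4.38 and 4.46 in control libraries, a 1.71-fold higher ratio. Since neither gene overlapped between media, the separation of this ratio follows from the values of each gene. Its exact permutation p of 0.1 (two-sided, the smallest possible) was therefore fixed by them and is no separate evidence. Relative to MDK, PTPRZ1 was 1.16-fold higher in treated libraries, without overlap (exact permutation p = 0.1, two-sided, the smallest possible). This p too was fixed, by the separation of PTPRZ1 and the narrow range of MDK. The ratio of NCL to MDK was 1.09-fold higher, but its media overlapped (exact permutation p = 0.2, two-sided).

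NCL (ENSG00000115053, chromosome 2, 231453531 to 231483641, minus strand, 14 exons) had 1626, 1580.5 and 1689 CPM in the treated replicates and 1499, 1505 and 1535 CPM in the control replicates. The media did not overlap, but the lowest treated library lay close to the highest control library, and the spread was wider in treated libraries (SD 54.5 against 19.4 CPM, n = 3 each). The means were 1632 and 1513 CPM, a log2 fold change of 0.11 (SE 0.027, 95% interval 0.0516 to 0.167, adjusted p = 0.00756, edgeR). Of the called genes, 7.36% changed less than NCL. Without control replicate 1 the adjusted p was 0.0448. NCL shares 3.71% of its 31-base words with other genes, and the small nucleolar RNA genes SNORA75 and SNORD20 overlap annotated NCL exons on the same strand.

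ALK (ENSG00000171094, chromosome 2, 29192774 to 29921586, minus strand, 29 exons) was barely detected. The treated replicates had 4, 2 and 6 reads and the control replicates 2, 5 and 2, with full overlap. This is 0.126 CPM (exact Poisson 95% interval 0.0649 to 0.219) in treated libraries and 0.0939 CPM (0.0429 to 0.178) in control libraries. The log2 fold change of 0.39 (adjusted p = 0.739, edgeR) has a 95% interval of -1.09 to 1.86, so no difference was detectable at this depth, and the interval includes 2-fold differences in both directions. An opposite-strand gene that meets ALK exons, CLIP4, also stood low at 0.335 and 0.213 CPM. The related kinase LTK, the other receptor of ALKAL1 and ALKAL2, had 8 reads over treated libraries and 23 over control libraries, and its libraries did not overlap (log2 fold change -1.47, SE 0.595, adjusted p = 0.087, edgeR).

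To compare levels between genes, counts were divided by the exon bases of each gene and scaled to the same total in every library, as in TPM. In control libraries the order from high to low was MDK (712 ± 15.1, SD, n = 3), NCL (657 ± 11.5), PTPRZ1 (211 ± 4.87), PTN (61.5 ± 0.470) and ALK (0.0495 ± 0.0270). In treated libraries the same quantities were 717 ± 14.6, 724 ± 27.3, 247 ± 1.34, 42.1 ± 1.67 and 0.0656 ± 0.0289, and MDK and NCL did not differ beyond their spread. The other neighbours in the order were separated by far more than theirs. MDK exceeded 99.4% of the 19916 genes with an annotated length, NCL 99.3%, PTPRZ1 97.2%, PTN 83.9% and ALK 16.6%. With the length of the canonical transcript in place of all exon bases, MDK stood above NCL in each library of both media, and the positions of PTPRZ1, PTN and ALK stayed the same.

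**Figure D2:**
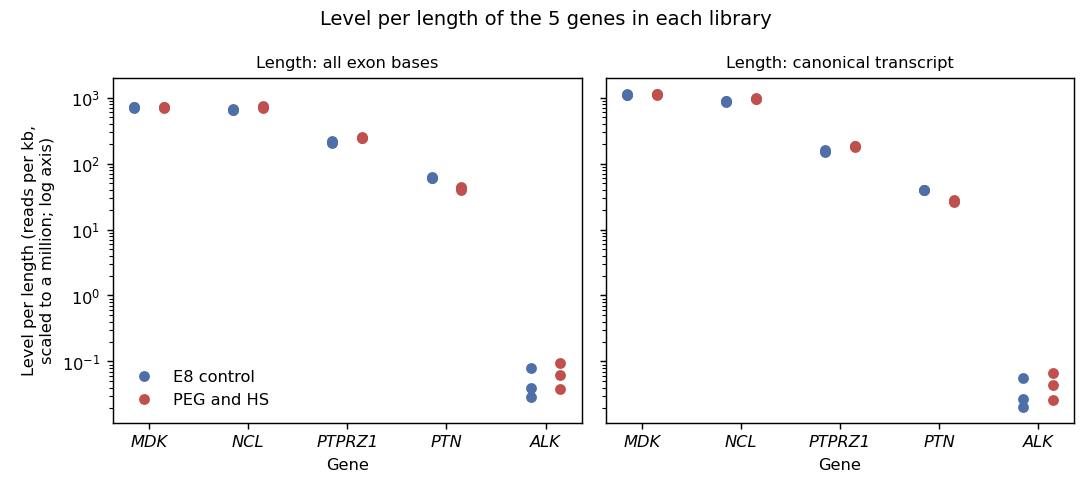
Level per length (reads per kilobase scaled to the same total in every library, log axis) of the 5 genes, one point per library, with all exon bases (left) or the canonical transcript (right) as length. MDK and NCL share the top, PTPRZ1 and PTN follow at 211 and 61.5 in control by exon bases, and ALK lies far below them at 0.0495.

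The genes whose profiles over the 6 libraries lay nearest to each member were found by the root mean square difference of log2 CPM, each profile centred on its mean, among 10069 genes with a mean of at least 10 CPM. For PTN these were HMCN2 (0.0209), CACHD1 (0.0244) and PALLD (0.0325), where the median gene lay at 0.301. For PTPRZ1 they were STK36 (0.0107), ACAD8 (0.0114) and PREX1 (0.0146), with a median of 0.107. For NCL they were ZCCHC2, C1QBP and FUNDC2 (0.00806 to 0.00926), and for MDK ECSIT, NADSYN1 and SSU72 (0.008 to 0.0116). These distances describe the 6 libraries and carry no test.

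Besides these receptors, MDK and PTN bind low density lipoprotein receptor family members, syndecans, glypicans, integrins and other proteoglycans. The list of 24 partners compared here also held genes outside these classes, among them PTPRB. Of the 24, 3 were called higher, 10 lower and 11 did not pass (54.2% called, against 25.3% of all genes tested). Their median log2 fold change was -0.068, against 0.003 over all genes tested. The endocytic receptor LRP2 fell from 5.09 ± 0.669 to 2.04 ± 0.265 CPM (SD, n = 3 each, log2 fold change -1.32, adjusted p = 6.32e-06, edgeR). NRP1, a co-receptor for semaphorins and VEGF, fell from 1.92 to 0.672 CPM (log2 fold change -1.51). GPC3, a cell surface heparan sulfate proteoglycan, fell from 78.6 ± 0.757 to 44.7 ± 3.23 CPM (log2 fold change -0.81, adjusted p = 2.48e-09). PTPRB, a receptor-type tyrosine phosphatase best known from endothelial cells, rose from 4.61 ± 0.467 to 7.46 ± 0.681 CPM (log2 fold change 0.69, adjusted p = 0.000144). Whether PTPRB binds MDK or PTN was not examined here, so its rise is not read as that of a receptor of either. ITGB1, the integrin beta chain of MDK receptors, rose from 349 to 418 CPM (log2 fold change 0.26), and the lipoprotein receptor family member LRP8 from 80.0 to 95.1 CPM (log2 fold change 0.25). The integrin alpha chains of the list, named after their values were seen, did not all go with ITGB1. ITGA6 fell from 265 to 224 CPM (log2 fold change -0.24, adjusted p = 6.84e-05, edgeR). ITGA4 and ITGAV did not pass (adjusted p = 0.0569 and 0.574, edgeR). LRP1, a receptor of MDK named here after its values were seen, fell from 618 to 557 CPM (log2 fold change -0.15, adjusted p = 0.00131).

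The 4 syndecans, which include the neural PTN receptor SDC3, were likewise picked out after their values were seen. SDC3 stood at 74.8 ± 2.41 CPM in treated libraries and 75.4 ± 3.96 CPM in control libraries (adjusted p = 0.887, edgeR). SDC2 and SDC4 fell (log2 fold changes -0.53 and -0.19, adjusted p = 1.03e-06 and 0.000648), and SDC1 did not pass (0.075, adjusted p = 0.143).

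Of 15 proteins that bind PTPRZ1 or are dephosphorylated by it, 3 were called higher, 3 lower and 9 did not pass. This was 40% called, against 25.3% of all genes tested, with a median log2 fold change of -0.053. The adhesion molecule L1CAM rose from 44.6 ± 1.15 to 66.7 ± 0.812 CPM (SD, n = 3 each, log2 fold change 0.58, adjusted p = 9.08e-09, edgeR). ADD2, the beta-adductin of the membrane skeleton, rose from 270 to 364 CPM (log2 fold change 0.43), and the focal adhesion protein PXN from 120 to 127 CPM (log2 fold change 0.089, adjusted p = 0.0375, and over 0.05 in 6 of the 13 alternatives, up to 0.127). NRCAM, a cell adhesion molecule of neurons, fell from 13.4 to 7.41 CPM (log2 fold change -0.86, adjusted p = 5.85e-07). The matrix protein TNC fell from 4.65 to 3.14 CPM (log2 fold change -0.57, adjusted p = 0.00909, and 0.0529 without treated replicate 1), and the scaffold protein MAGI1 from 132 to 116 CPM (log2 fold change -0.20). The contactin CNTN1, a neuronal PTPRZ1 ligand, named here after its values were seen, had 21.5 ± 1.48 CPM in treated libraries and 21.4 ± 1.14 CPM in control libraries and overlapped (adjusted p = 0.93, edgeR).

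**Figure D3:**
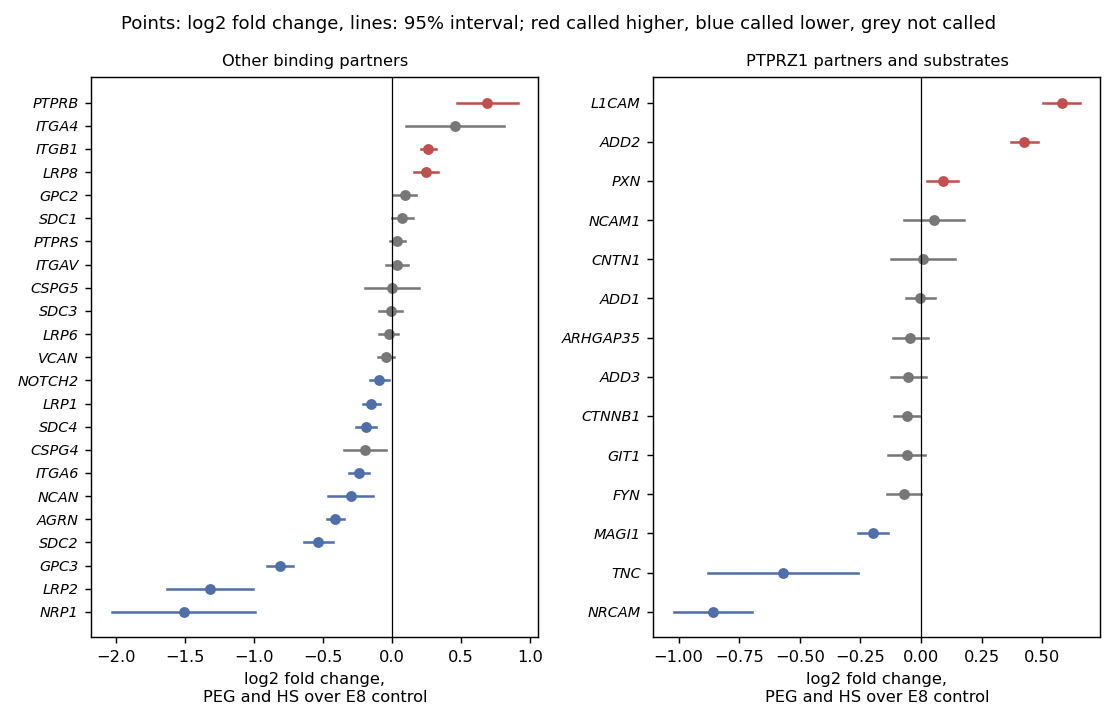
Log2 fold change (x axis, treated over control) with 95% interval of genes listed as other MDK and PTN binding partners (left) and of PTPRZ1 partners and substrates (right), for genes with a mean of at least 1 CPM. Changes run from -1.51 (NRP1) to 0.69 (PTPRB) on the left and from -0.86 (NRCAM) to 0.58 (L1CAM) on the right.

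Although ALK itself was barely detected, its adaptor proteins, which serve many receptors, were expressed. Of 8, 3 were called higher, 1 lower and 4 did not pass (50% called, against 25.3% over all genes, median log2 fold change -0.00029). SHC3 had 35.3, 37.3 and 34.3 CPM in treated libraries and 18.7, 19.0 and 17.4 CPM in control libraries, and rose 1.94-fold (log2 fold change 0.96, SE 0.053, adjusted p = 3.19e-09, edgeR). SHC1 rose from 288 to 346 CPM (log2 fold change 0.26) and PLCG1 from 246 to 263 CPM (0.098, adjusted p = 0.0163, and 0.0523 to 0.0625 without treated replicate 2, control replicate 2 or control replicate 3). FRS2 fell from 36.3 to 32.3 CPM (-0.17, adjusted p = 0.0144, and 0.0632 and 0.0733 without treated replicate 1 or control replicate 3).

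The sulfated chains that hold MDK and PTN at the cell surface are built and edited by a set of enzymes. Of 31 heparan sulfate enzymes, 30 were tested, with 6 called higher, 10 lower and 14 not passing. This was 53.3% called, against 25.3% of all genes tested, with a median log2 fold change of -0.042. The 3-O-sulfotransferases HS3ST2, HS3ST3B1 and HS3ST5 fell by 0.86, 0.61 and 0.52 on the log2 scale (adjusted p = 0.00154, 0.00185 and 0.00381, edgeR), each from a level of 3.81 to 7.03 CPM in control libraries. Another 3-O-sulfotransferase, HS3ST4, was higher at 8.95 against 7.34 CPM (0.28, adjusted p = 0.016), which was 0.0719 with DESeq2 and 0.0564 to 0.0603 without treated replicate 3, control replicate 1 or control replicate 3. SULF1, a sulfatase that removes 6-O-sulfates from heparan sulfate outside the cell, rose from 20.1 ± 2.02 to 29.6 ± 1.03 CPM (SD, n = 3 each, log2 fold change 0.56, adjusted p = 1.18e-05), whereas its relative SULF2, named after its value was seen, did not pass (-0.07, adjusted p = 0.41). HPSE, the heparanase that cleaves the chains, rose from 3.30 to 4.58 CPM (0.46, adjusted p = 0.0113).

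Of 16 chondroitin sulfate enzymes, which make the kind of chain that PTPRZ1 carries, 5 were called higher, 2 lower and 9 did not pass. This was 43.8% called, against 25.3% of all genes tested, with a median log2 fold change of 0.038. The summed level of these enzymes was 487 to 500.2 CPM in treated libraries and 434 to 449 CPM in control libraries. DSEL, an epimerase that makes dermatan sulfate, rose from 31.1 ± 0.983 to 47.1 ± 3.36 CPM (SD, n = 3 each, log2 fold change 0.60, adjusted p = 4.94e-07, edgeR). The 6-O-sulfotransferase CHST7 and the chain polymerase CHSY1 rose by smaller amounts (log2 fold changes 0.27 and 0.26). CHST15, which makes the disulfated E unit that binds MDK and PTN strongly, fell from 17.9 ± 1.72 to 13.8 ± 0.528 CPM (log2 fold change -0.38, adjusted p = 0.00106). CSGALNACT2, which starts the chain, fell by 0.34 on the log2 scale (adjusted p = 0.0139, and 0.0594 and 0.0777 without treated replicate 3 or control replicate 2).

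**Figure D4:**
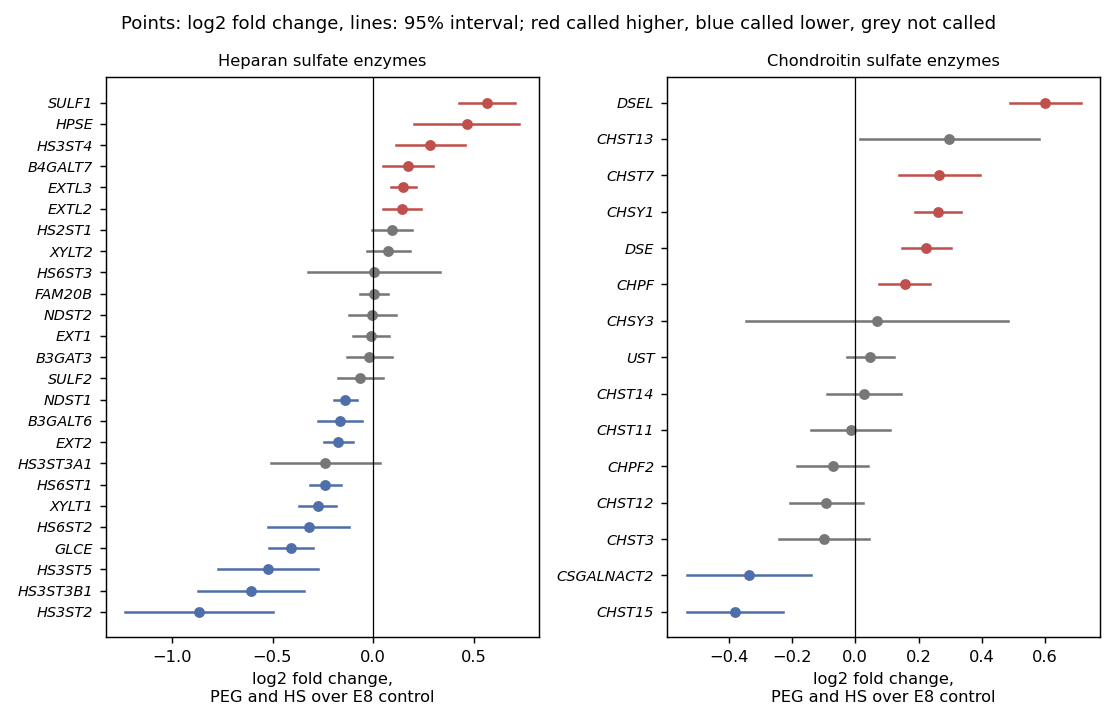
Log2 fold change (x axis, treated over control) with 95% interval of heparan sulfate enzymes (left) and chondroitin sulfate enzymes (right) with a mean of at least 1 CPM. Changes run from -0.86 (HS3ST2) to 0.56 (SULF1) on the left and from -0.38 (CHST15) to 0.60 (DSEL) on the right.

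NCL works in the nucleolus with the proteins that make ribosomal RNA and assemble ribosomes. Of 22 such proteins, 9 were called higher, 0 lower and 13 did not pass in edgeR's test (40.9% called, against 12.2% called higher over all genes), and 19 of 22 log2 fold changes were positive. The median was 0.072 and the changes lay between -0.13 and 0.20, where NCL itself changed by 0.11. One called gene, NOP2, shares 53.5% of its 31-base words with other genes, so its count is uncertain. POLR1B, the second largest subunit of RNA polymerase I, rose from 88.6 to 102 CPM (log2 fold change 0.20, adjusted p = 0.000202, edgeR), BOP1, a ribosome assembly factor, from 96.5 to 109 CPM (0.17), and the helicase DDX21 from 343 to 381 CPM (0.15). NPM1 and FBL, well-known nucleolar proteins, were named after their values were seen. NPM1 had 1705 ± 101 CPM in treated libraries and 1652 ± 28.6 CPM in control libraries and overlapped (adjusted p = 0.376). FBL, the methyltransferase fibrillarin, had 243 against 266 CPM (log2 fold change -0.13, adjusted p = 0.0509).

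Since PTN and PTPRZ1 are also genes of neural progenitors, neural markers were measured beside them. Of 12 neural markers, 0 were called higher, 6 lower and 6 did not pass in edgeR's test (50% called, against 13.1% called lower over all genes, median log2 fold change -0.71). None of the 12 was at 0 in all libraries, and their summed level was 787 to 828 CPM in treated libraries and 896 to 931 CPM in control libraries. Most of that sum was NES, named after its values were seen, with 543 CPM in treated and 643 CPM in control libraries. SOX1, SIX3 and PAX6 fell by 1.70, 1.35 and 1.17 on the log2 scale (adjusted p = 6.51e-07, 1.91e-08 and 0.0016, edgeR). DCX and TUBB3, genes of young neurons named after their values were seen, did not pass (adjusted p = 0.537 and 0.638). PTN was lower together with the 6 called neural markers and PTPRZ1 was higher. The part of neural cells in either result was not tested.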

How the data were processed

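RNA was sequenced from 6 libraries of NCRM-1 cells, 3 per medium, prepared with a stranded mRNA kit. The authors deposited whole-number counts of reads per gene. Their reads were trimmed with Trim Galore 0.6.7 and aligned to GRCh38 with STAR 2.6.1 in an nf-core workflow, per the submitters' processing notes and the study's methods. The counting strand and annotation release were not given in the sources used here. Of 19977 identifiers, 19916 matched GENCODE 44, which gave positions and lengths.

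Groups followed the treatment label. Genes with at least 10 counts in total were tested (16505) with edgeR 4.0.16 in R 4.3.3, using TMM factors (0.994 to 1.006), glmQLFit and glmQLFTest with both groups and no covariate, and Benjamini-Hochberg adjustment with a threshold of 0.05. Ratios within libraries were compared by an exact permutation test. The fit was also run on simulated data with planted changes larger than those of PTPRZ1 and NCL, and no result above rests on that run. Library totals of 26991279 to 36185138 counts set the precision, and Poisson intervals cover counting error only.

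The 5 genes and all lists were chosen with earlier results of these data known. Named from each list were all ligands and receptors, and elsewhere up to 3 genes that rose and 3 that fell the most, among called genes with no overlap between media and a mean of at least 1 CPM, plus the 3 nearest profiles. Exceptions are marked. The main fit did not pair libraries by replicate number. The correlations of same-numbered deviations were 0.0305, 0.0376 and 0.0434, and those of the other pairs lay between -0.0944 and 0.0537. Such small values do not exclude a weak pairing. Alternatives were DESeq2 1.42.0, limma-voom 3.58.1, other scalings and filters, a replicate block, leaving out each library and, chosen after seeing the data, another length definition and the alternatives for single list genes.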

Additional observations from a re-analysis of the deposited data

How the results depend on the processing

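PTN, PTPRZ1 and NCL kept their direction and their call under all 13 alternatives, with log2 fold changes of -0.60 to -0.55, 0.18 to 0.21 and 0.08 to 0.13. MDK was called under none of them. Its log2 fold change turned to 0.0020 without treated replicate 3 and ranged from -0.040 to 0.0020 when each library was left out, and the cause was not tested. ALK ranged from 0.03 to 0.92 when each library was left out, received no adjusted p from DESeq2 and was not tested when at least 1 CPM was required. The replicate block gave 4444 called genes in place of 4173 and the calls of PTN, PTPRZ1, NCL and the other 46 called genes named by the rule were kept under it. Genes named after their values were seen are not among these counts. The other settings gave 3398 (DESeq2) to 4259 called genes, and leaving out a library gave 3114 to 3674. With the length of the canonical transcript, chosen after seeing the data, the ratio of NCL to MDK in level per length was 0.798 in place of 0.923 in control libraries. In treated libraries the ratio was 0.834 to 0.929 in place of 0.9645 to 1.075. Of 46 called list genes, 38 kept the call under every alternative, 8 lost it under at least 1, and 0 reversed. Depth limits ALK, ALKAL1 and LTK, which had 8 to 23 reads per medium.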

Other observations

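The summed levels of the marker lists of other cell types were low beside that of the pluripotent ones. This did not hold for each marker. The neural marker NES, named after its values were seen, had 643 CPM in control libraries, where NANOG had 126 CPM. Of 6 mesenchymal markers, 4 were called lower, 0 higher and 2 did not pass in edgeR's test (against 13.1% called lower over all genes), with a summed level of at least 233 CPM in each control library and at least 172 CPM in each treated one, without overlap. The collagen genes COL1A1 and COL3A1 fell from 120 to 60.1 CPM and from 14.9 to 8.87 CPM (adjusted p = 9.67e-11 and 0.00428, edgeR). LUM fell from 2.20 to 0.948 CPM (adjusted p = 0.0019, edgeR). COL1A2 and PDGFRB, named after their values were seen, did not pass (adjusted p = 0.0989 and 0.829, edgeR). COL1A2 had 104 CPM in control and 98.4 CPM in treated libraries. Of 6 neural crest markers, 1 was called higher, 2 lower and 3 did not pass (against 12.2% called higher and 13.1% called lower over all genes). Their summed level was 54.7 to 58.8 CPM in treated and 50.9 to 53.7 CPM in control libraries, and most of it was FOXD3. FOXD3, which is also expressed in pluripotent cells, rose by a log2 fold change of 0.32, and TFAP2A and SOX10 fell by 3.30 and 0.48 on the log2 scale. The adjusted p of SOX10 was 0.0223 with edgeR, 0.0627 with DESeq2, and 0.0515 to 0.0858 without treated replicate 1, treated replicate 3, control replicate 1 or control replicate 3. Of 8 mesoderm and endoderm markers, 6 had enough counts to be tested, and all 8 together reached 4.52 to 4.76 CPM in treated and 4.895 to 5.224 CPM in control libraries. Of the 12 pluripotent stem cell markers, 5 were called higher and 4 lower (75% called, against 25.3% of all genes tested). NANOG, L1TD1 and DPPA4 rose by log2 fold changes of 0.55, 0.36 and 0.30. NANOG shares 38.2% of its 31-base words with other genes, most with NANOGP8, so its count is less certain. SOX2, PODXL and LIN28A fell by 0.59, 0.41 and 0.30 on the log2 scale.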
